A study of Homo sapiens with 12 samples.

Results

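Among the places on the genome where FoxK1 was called in every library, 740 regions ranked higher in each of the 3 insulin libraries than in any of the 3 untreated ones. They are 740 of 15887 regions (build hg19) that held a peak in all 6 lists, out of 68127 merged regions in the series. The insulin group was HepG2 cells given 100 nM insulin for 20 min after 16 h in serum-free medium. The untreated group was HepG2 cells kept in the same serum-free medium for the same 16 h with no insulin. Each group had 3 FoxK1 chromatin immunoprecipitation libraries, and the 6 input libraries were not analysed here. HepG2 is a single hepatocellular carcinoma line, and nothing in the labels says whether the replicates were separate cultures.

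FoxK1 belongs to the forkhead family of transcription factors, which bind DNA through a winged-helix domain. It works in part with the SIN3 corepressor complex and is known for controlling metabolic and autophagy genes. Insulin signalling through AKT is known to move FoxO factors, other forkhead proteins, out of the nucleus, and FoxK1 has been described to move the opposite way. A site bound before and after insulin can differ in how strongly it is occupied, and the rank of a shared site among the other shared sites of its list is one way to follow that. In bulk libraries, occupancy in more cells and more occupancy per cell cannot be told apart.

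The regions were chosen by the deposited −log10 q, the adjusted significance of a peak against its local background. Peaks sharing 1 bp or more were merged, and each region took its strongest peak in each list. In each list the 15887 shared regions were then ranked as percentiles, from weakest to strongest. A region was a member when its lowest insulin percentile lay above its highest untreated percentile. The distance between those percentiles is called the gap here. Since these values chose the members, the percentiles, folds, fragment numbers and widths below describe them and test nothing.

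The 740 members were 4.66% of the shared regions. The opposite rule, with every untreated percentile above every insulin percentile, gave 685 regions, or 4.31%. The rule was also applied to every other way of placing 3 of the 6 libraries above the other 3. These 18 directed placements gave between 446 and 1464 regions, with a median of 735.5, and 9 of them gave more than 740. Counting both directions, the treatment labels gave 1425 regions. The other 9 divisions gave between 1041 and 2844, and 5 of them gave more than 1425. The highest single count, 1464, came from placing insulin replicates 1 and 3 with untreated replicate 3. Among all 20 placements, the number of members was in the middle by order, at position 10 from the highest. A region can meet the rule in only 1 placement, so a high count in 1 placement leaves fewer regions for the others. Same-numbered libraries deviated together, as described below, and the placements differ in whether they keep such a pair on one side. The treatment labels put the libraries of every pair on opposite sides, and so do 6 other placements, which gave 622, 595, 569, 555, 525 and 446 regions. The 740 members and the 685 regions ranked lower were the highest counts of these 8. These placements are the same divisions read in both directions. The labels give replicate numbers but no pairing, which was taken from these same data. The order of the counts is therefore a description and was not tested. In both directions together, the treatment labels gave 1425 regions and the other 3 divisions of this kind gave 1147, 1124 and 1041. All 5 divisions that gave more than 1425 kept 1 pair whole on each side and split the other. The lowest of the 6 divisions that did so gave 1396. The placements that kept pairs whole can be divided by whether the pair of replicate 3 was split. Placements that kept the pair of replicate 3 and 1 other pair whole gave between 729 and 1464 regions. Placements that split the pair of replicate 3 and kept the pairs of replicates 1 and 2 whole gave 744, 742, 700 and 696. The 2 ranges overlap, and the part of the pair of replicate 3 in these counts was not tested. When same-numbered libraries were set against each other, as a replicate block, 2317 regions (14.6%) ranked higher after insulin in all 3 pairs and 2185 (13.8%) ranked lower in all 3. All 740 members are among the 2317 by construction.

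**Figure D1:**
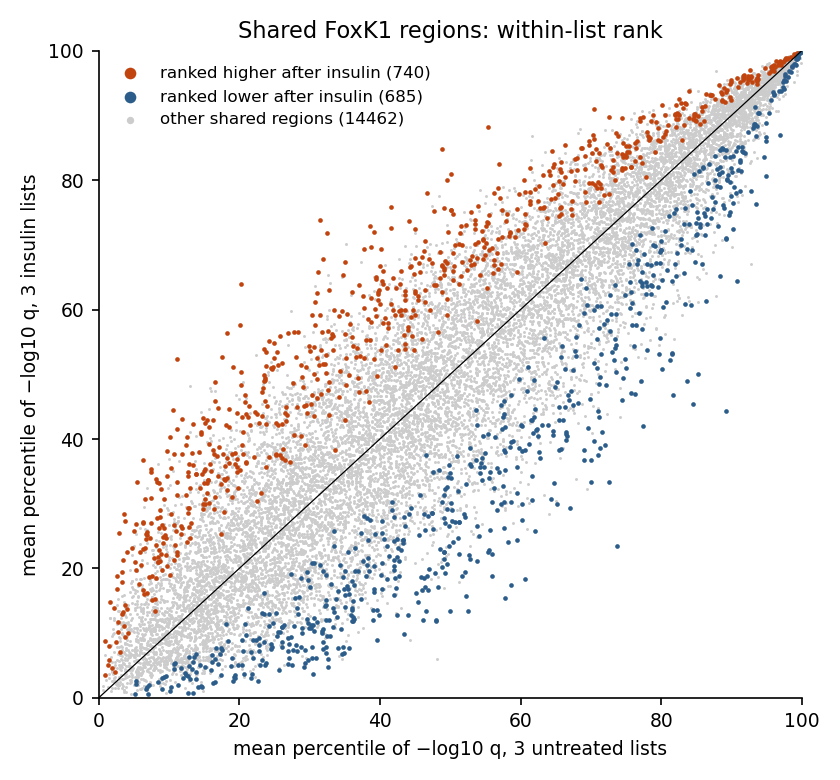
Each point is 1 shared region, with its mean percentile of −log10 q in the 3 insulin lists on the y axis and in the 3 untreated lists on the x axis. The 740 regions ranked higher after insulin lie above the diagonal and the 685 ranked lower lie below it, both along the edges of one continuous cloud.

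Most members met the rule narrowly. The median gap was 2.89 percentile points. Of the 740, 226 had a gap of at least 5 points (1.42% of the shared regions), 70 of at least 10 points (0.441%), 21 of at least 15 and 4 of at least 20. The widest gap was 26.4 points. Among the regions ranked lower after insulin the median gap was 3.05 points and the widest 37.0. Of these, 97 had a gap of at least 10 points (0.611% of the shared regions), 33 of at least 15, 12 of at least 20 and 4 of at least 30. The mean insulin percentile of a member exceeded its mean untreated percentile by a median of 15.4 points (quartiles 9.46 and 20.7).

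The limit of a member was set by different libraries at different sites. The lowest insulin percentile belonged to replicate 2 at 352 members (47.6%), to replicate 1 at 205 (27.7%) and to replicate 3 at 183 (24.7%). The highest untreated percentile belonged to replicate 1 at 283 members (38.2%), to replicate 3 at 242 (32.7%) and to replicate 2 at 215 (29.1%). No single library set the limit at most of the members.

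The site with the widest gap was chr7:128095402-128096430. Its percentiles were 70.2, 39.95 and 47.2 in insulin replicates 1, 2 and 3, against 11.0, 8.71 and 13.5 in untreated replicates 1, 2 and 3. The authors' fold over background there was 12.3, 7.93 and 6.31 in the insulin lists, against 2.99, 2.67 and 3.62 in the untreated lists. It was a middling site in the insulin lists and by this rank among the weaker shared sites without insulin. Its summit held 88, 73 and 26 fragments after insulin and 71, 42 and 19 without it. The local background there was 6.21, 8.34 and 3.28 after insulin and 23.1, 15.1 and 4.52 without it. For the median shared region the background was 5.03, 7.997 and 3.45 after insulin and 12.9, 9.15 and 4.41 without it. The part of the background in this gap was not tested. Folds are each list's own value. The median shared region had a fold of 10.2, 9.33 and 6.19 in the insulin lists, against 6.51, 5.14 and 5.23 in the untreated lists, so a higher fold in an insulin list is not by itself a difference at that site.

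Next came chr6:31832932-31833755, with percentiles of 74.9, 72.7 and 74.0 after insulin and 46.5, 19.5 and 28.4 without it. The insulin libraries placed it within a few points of each other and the untreated libraries did not. At chr6:166755243-166756790 the percentiles were 60.2, 53.3 and 44.6 after insulin and 13.9, 19.2 and 19.6 without it. At chr18:267398-268525 they were 60.2, 53.8 and 59.0 after insulin and 28.9, 8.34 and 22.9 without it. These 4 sites are the ones with a gap of 20 points or more.

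The strongest of the 10 widest-gap sites was chr2:27316583-27317354, with percentiles of 76.9, 79.3 and 86.5 after insulin and 56.4, 57.3 and 36.6 without it. The weakest was chr1:3691726-3693228, at 31.8, 35.3 and 32.8 after insulin and 7.25, 4.88 and 12.7 without it. The other four were chr10:92631025-92632205, chr7:100302743-100304099, chr16:85322427-85323032 and chr12:71946637-71947657, with gaps between 18.6 and 19.1 points. Their percentiles reached from 35.2 to 80.7 after insulin and from 2.57 to 56.6 without it.

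**Figure D2:**
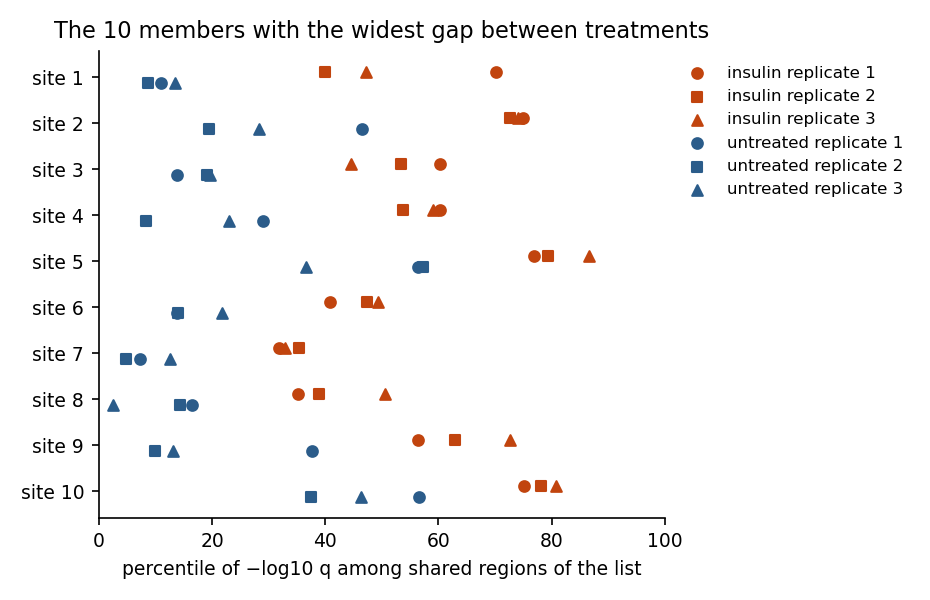
The 10 members with the widest gap are shown in order from site 1 at the top, each with its percentile of −log10 q in the 3 insulin and the 3 untreated lists on the x axis. Insulin points lie to the right of untreated points at every site by the rule of choice, and the distance between them ranges from 18.6 to 26.4 points.

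The 10 widest-gap sites were between 606 and 1548 bp wide, around the median of 1092 bp for all shared regions. Exactly 1 peak of each library was present at 9 of the 10, and at 82.6% of all shared regions. The 6 summits of a site lay within 35 to 204 bp of each other, against a median of 94 bp for all shared regions. At all 10 the within-list percentiles of fold and of fragments at the summit were also higher in every insulin list. This held for fold at 55.9% of members and 4.08% of all shared regions, and for fragments at 49.2% and 4.70%. Background percentiles were lower in every insulin list at 0 of the 10, against 5.95% of members. The fragment numbers at these sites were modest. They lay between 20 and 154 at the summit in the insulin lists and between 17 and 114 in the untreated lists. Fragments at the summit were solved from the authors' fold and p.

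Members were found at every strength. Their mean percentile over the 6 lists had a median of 51.9, against 47.9 for all shared regions and 44.1 for the regions ranked lower after insulin. In the weakest class, with a mean percentile up to 10, 21 of 736 shared regions were members (2.85%) and 40 ranked lower (5.43%). In the strongest class, above 90, 73 of 1356 were members (5.38%) and 44 ranked lower (3.24%). Between these the share of members lay between 4.07% and 5.48%. Gaps were narrower at both ends of the lists. The median gap of a member was 0.869 points in the class up to 10, 2.80 points from 10 to 20, 5.47 points from 30 to 40 and 0.450 points above 90.

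**Figure D3:**
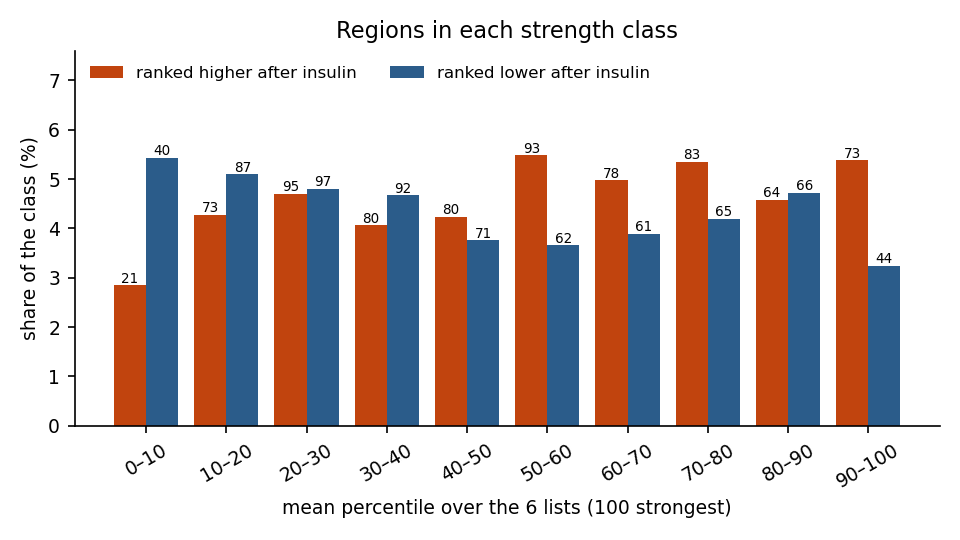
Bars give the share of shared regions in each class of mean percentile that ranked higher (left bar) or lower (right bar) after insulin, with the number of regions above each bar. The share ranked higher goes from 2.85% in the weakest class to 5.38% in the strongest, and the share ranked lower from 5.43% to 3.24%.

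The strongest member was chr6:53412214-53413376. Counted from the strongest of the 15887 regions, it ranked 11, 10 and 7 in insulin replicates 1, 2 and 3, against 24, 22 and 13 in untreated replicates 1, 2 and 3. It rested on 891, 1177 and 310 fragments at the summit after insulin and on 853, 474 and 263 without it. The next was chr3:183352633-183355037, which ranked 48, 31 and 57 after insulin and 77, 82 and 69 without it. At chr7:148936367-148937220 the ranks were 43, 82 and 42 after insulin and 93, 130 and 128 without it. The first of these 3 sites had a gap of 0.0126 points, so a few places in the ranking made it a member.

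The others among the 10 strongest members lay at chr2:243030070-243031439, chr20:60811786-60815014, chr1:8318689-8320286, chr2:46842845-46845157, chr6:168076506-168077405, chr3:122512270-122514354 and chr12:53573764-53575160. None of the 10 ranked below 181 in an insulin list or below 383 in an untreated list. Their gaps were between 0.00629 and 0.504 points. These sites were strong in both conditions, with a fold between 25.7 and 106 in the insulin lists and between 14.8 and 40.5 in the untreated lists. Their percentiles of fold were higher in every insulin list at 3 of the 10, against 55.9% of members and 4.08% of all shared regions. Those of fragments were so at 7 of the 10, against 49.2% and 4.70%.

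At the edge of the rule, the smallest gaps were 0.00315 points at chr21:34696637-34698162, 0.00629 points at chr17:59444024-59444862 and 0.00629 points at chr1:8318689-8320286. The first of these had percentiles of 56.0, 14.1 and 32.8 after insulin and 7.82, 7.24 and 14.1 without it. The regions that missed by least were chr17:66452189-66454730, with a gap of 0, and chr19:41109289-41110473 and chr1:210000905-210001734, both with a gap of -0.00629. The first of the 3 ranked 1, 1 and 1 after insulin and 1, 2 and 1 without it. A site at the head of the untreated lists cannot meet the rule.

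Peaks at members stood out from other shared peaks in the insulin lists and were close to them, or below, in the untreated lists. The median member had 75, 96.5 and 34 fragments at its summit in insulin replicates 1, 2 and 3, against 88.5, 50 and 27 in untreated replicates 1, 2 and 3. Divided by the median of all shared regions of the same list, these were 1.25, 1.18 and 1.17 after insulin and 1.02, 0.980 and 0.931 without it. The median fold, relative to the same list, was 1.16, 1.12 and 1.19 after insulin and 0.862, 0.861 and 0.871 without it. Members' peaks were also a little wider relative to their list after insulin, at 1.08, 1.09 and 1.15 times the median, than without it, at 1.01, 1.01 and 0.961 times.

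The local background at the summit moved with membership as well. Relative to all shared regions of the list it was 1.07, 1.02 and 0.958 in the insulin lists, against 1.15, 1.13 and 1.08 in the untreated lists. At a given number of fragments the −log10 q falls as the background rises, so the rank of a member reflects both quantities. Background percentiles were lower in every insulin list than in any untreated list at 44 of the 740 members (5.95%), against 2.21% of all shared regions. They were higher in every insulin list at 1 member (0.135%), against 2.09% of all shared regions. The lists themselves differed in background. The median shared region had 5.03, 7.997 and 3.45 fragments of background in the insulin lists, against 12.9, 9.15 and 4.41 in the untreated lists. The part of the background in the ranks was not tested.

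**Figure D4:**
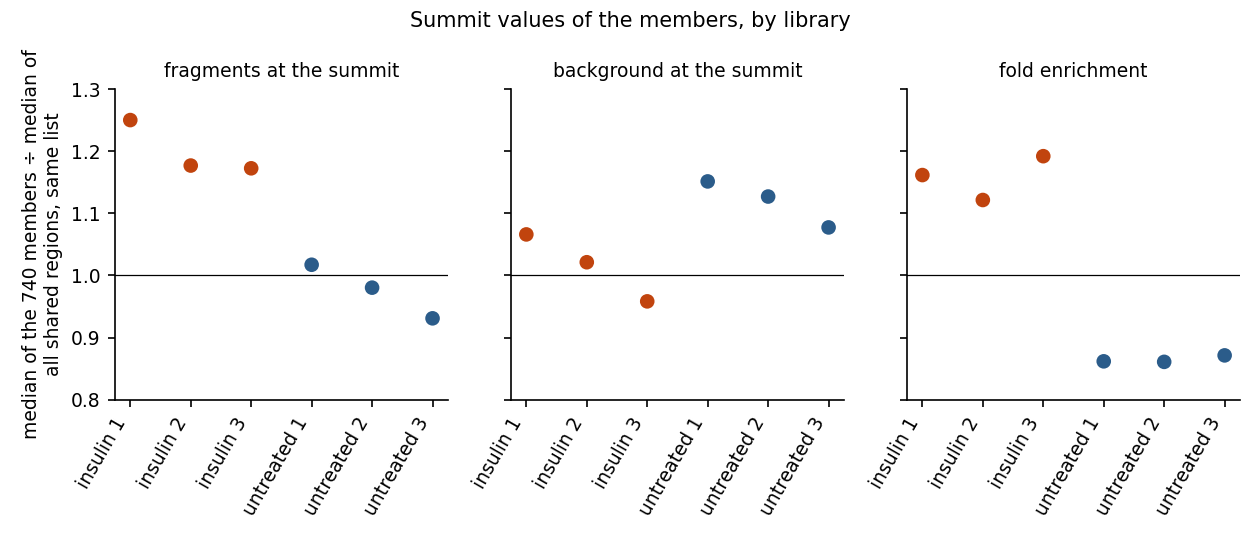
Each point is the median of the 740 members in 1 list divided by the median of all shared regions in the same list, for fragments at the summit, background at the summit and fold enrichment (y axis, ratio; the axis starts at 0.8). Insulin lists lie between 1.17 and 1.25 for fragments and untreated lists between 0.931 and 1.02, while for background the insulin lists lie between 0.958 and 1.07 and the untreated lists between 1.08 and 1.15.

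Membership depended on which deposited value was ranked. When fold replaced −log10 q, 648 regions (4.08%) met the rule, and 414 of the 740 members (55.9%) were among them. When fragments at the summit were ranked, 747 regions (4.70%) met it, and 364 of the members (49.2%) were among them. Both rankings retained 188 members (25.4%), and 150 (20.3%) met the rule on neither.

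Sites can also be chosen by rank in some libraries and read in libraries whose ranks had no part in that choice. All 6 libraries still defined which regions were shared and where their edges lay. The held-out libraries were thus left out of the comparison of percentiles alone. Regions were chosen by the same rule from 4 libraries, 2 of each treatment, and then read in the remaining insulin and untreated library. For the pair of replicate 1, 2263 regions were chosen and 56.8% of them ranked higher in the insulin library, against 52.7% of all shared regions. For the pair of replicate 2, 2458 were chosen and 55.1% ranked higher, against 49.9%. For the pair of replicate 3, 2860 were chosen and 51.6% ranked higher, against 49.9%. Regions chosen as lower ranked higher in the insulin library of these pairs at 46.8%, 39.8% and 45.3%. The choice thus carried over to the held-out pair of the same number by 4.09, 5.24 and 1.79 percentage points above all shared regions.

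In the 6 pairs of different number it did not carry over. Of the regions chosen as higher, between 37.1% and 50.2% ranked higher in the held-out insulin library, below the share of all shared regions in each of the 6. The lowest was insulin replicate 2 with untreated replicate 3, where 37.1% of 3238 chosen regions ranked higher after insulin and 61.9% of 2923 regions chosen as lower did. Over all 9 pairs the share was 48.6% ± 5.99 (SD over pairs, which share libraries). The mean over the same pairs was 50.6% for all shared regions and 51.0% for regions chosen as lower. Regions are not replicates and the 9 choices share libraries, so these shares were not tested. Same-numbered libraries deviated together from the mean of their treatment, with a correlation across the 15887 regions of 0.123 for replicate 1, 0.300 for replicate 2 and 0.307 for replicate 3. Between libraries of different number and treatment the same correlation was at most 0.0933 and as low as -0.321. Deviations from a treatment mean cancel at every region, so high values in same-numbered pairs lower the values in the other pairs. The contrast between the 2 kinds of pair is therefore partly set by the calculation. In a pair of different number, the libraries used for the choice include the same-numbered partner of each held-out library. The part of this shared deviation in the shares was not tested.

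**Figure D5:**
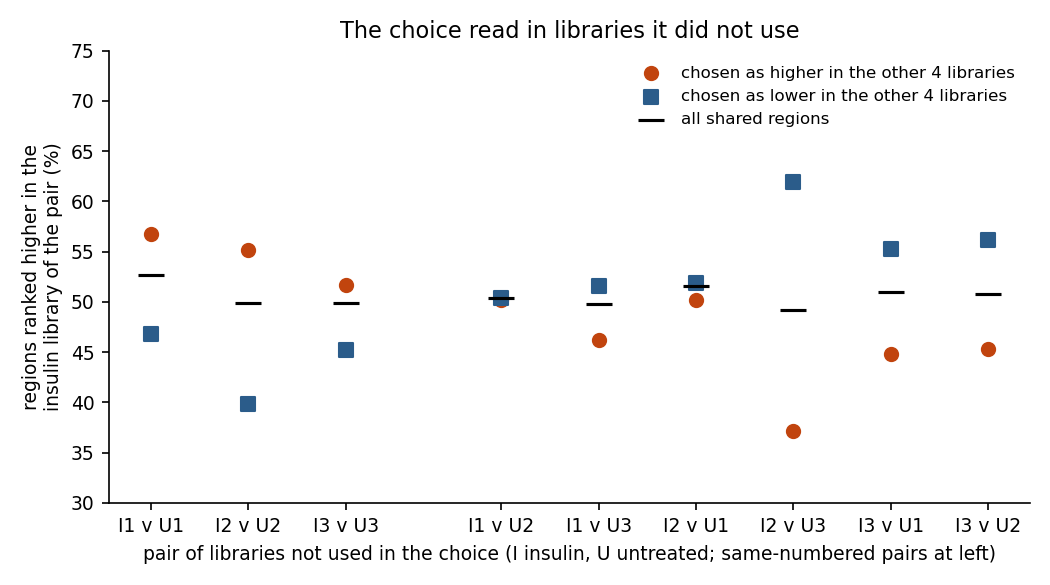
For each pair of 1 insulin and 1 untreated library (x axis), points give the percentage of regions that ranked higher in the insulin library of that pair, for regions chosen as higher or as lower from the other 4 libraries, and dashes give all shared regions (y axis from 30%). Regions chosen as higher stand above all shared regions in the 3 same-numbered pairs (51.6% to 56.8%) and below them in the 6 others (37.1% to 50.2%).

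Across the 15887 shared regions, percentiles of libraries of the same treatment correlated between 0.745 and 0.874 (6 pairs) and those of different treatment between 0.742 and 0.890 (9 pairs). These points share the genome's strong and weak sites, and the ranges of the 2 kinds of pair overlapped. The highest value across treatments, 0.8905, was insulin replicate 2 with untreated replicate 1, which differ in number. Insulin replicate 2 with untreated replicate 2 gave 0.8903.

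Members were spread over the genome much as shared regions are. Every chromosome from 1 to 22 and X held at least 6 of them, and the share of a chromosome's shared regions that were members lay between 3.41% on chromosome 9 (22 of 646) and 5.90% on chromosome 13 (19 of 322). Chromosomes 1, 2 and 6 held the most, with 67, 62 and 54, and they also held the most shared regions. A single member lay on a contig outside these chromosomes, where there were 23 shared regions.

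The rule read 1 region at a time, and the sites next to a member offer a view it did not use, although from the same libraries. The nearest shared region of a member lay at a median distance of 20884 bp, against 20208 bp for all shared regions. It was itself a member at 31 of 740 (4.19%), against 4.62% over all shared regions. It ranked on average higher after insulin at 55.5% of members, against 50.9% of all shared regions and 46.4% of the regions ranked lower. Where the neighbour was within 10 kb, as at 276 members, its mean percentile was higher after insulin by a median of 2.01 points, against 0.132 points for all shared regions with so close a neighbour. For the nearest region at any distance the median was 0.922 points at members, against 0.130 points over all shared regions. Close neighbours thus leaned the same way by a small fraction of the 15.4 points of the members themselves.

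Clusters of members were few. Of 2199 windows of 1 Mb with a shared region, 578 held a member, 452 of them exactly 1, 99 of them 2 and 27 of them 3 or more. The highest number was 5, in 2 windows. One was chromosome 17, 36000001 to 37000000, where 5 of 22 shared regions were members, none ranked lower, and 15 of the 22 had a higher mean percentile after insulin. Its members include chr17:36902275-36903201, with a gap of 17.3 points, and chr17:36101769-36105107, with a gap of 5.27. The other was chromosome 1, 3000001 to 4000000, with 5 of 18 shared regions, none ranked lower, and 14 of 18 higher on average. It contains chr1:3691726-3693228, the 7th widest gap, whose neighbour chr1:3687935-3691134, 592 bp away, was also a member with a gap of 0.988. The 5 members of each window are higher on average by the rule and are part of the 15 and the 14. Over all shared regions the mean percentile was higher after insulin by a median of 0.134 points. These windows were picked for their counts, and no test was made of them.

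In shape the members were close to other shared regions. Their merged width had a median of 1161 bp, against 1092 bp for all shared regions and 1000 bp for those ranked lower. Exactly 1 peak per library was present at 604 members (81.6%), against 82.6% of all shared regions. The strongest peaks of the 6 lists had summits within 100 bp of each other at 429 members (58.0%), against 53.3% of all shared regions and 47.9% of those ranked lower. At 19 members (2.57%) the strongest summits were more than 1000 bp apart, so different peaks of one region were compared there. All shared regions had 2.76% of this kind.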

How the data were processed

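FoxK1 peak lists of 6 libraries, 3 per treatment, were analysed. Groups and replicate numbers come from the sample titles. Per the submitters' processing notes, fastp, Bowtie2, SAMtools and MACS2 were used with build hg19. Their versions, the calling threshold and the use of the inputs are not given in the sources used. The authors called peaks on each library by itself, since the deposited peak names carry 1 library's name. The deposited fold is a linear ratio of a summit over its local background, and the deposited −log10 p and −log10 q grow with depth, which is unknown. Lists held 48208, 45057 and 27503 peaks after insulin and 44687, 31668 and 26082 without it. The deposited score follows the −log10 p and was not used. The deposited summit position was used to measure distances.

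Regions, percentiles (ties at their mean) and gaps were computed with Python 3.11.15, numpy 2.4.6, pandas 2.3.3, scipy 1.17.1 and matplotlib 3.10.9, and coordinates are 1-based. Fragments and background were solved from fold as (fragments + 1) over (background + 1) and p as a Poisson upper tail, with a tolerance of 0.0005 in −log10 p, taken in proportion for larger values. The steps were checked on simulated data. Same-numbered libraries were taken as pairs, since the deviations of each pair correlated above 0.1. This cutoff separated them narrowly, at 0.123 for replicate 1 against 0.0933 for insulin replicate 2 with untreated replicate 1. The labels give replicate numbers but no pairing. The members, settings and gene lists were chosen with earlier results of these data known. Named regions are the 10 widest gaps, the 10 highest mean percentiles, the 3 smallest gaps and the 3 nearest misses; regions named in the windows were chosen after their values were seen. No genome or annotation of hg19 was used here, so promoters, genes, gene lists and motifs were not analysed and no sequence is shown. No p-value was computed, because the rule used the contrast itself.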

Additional observations from a re-analysis of the deposited data

How the results depend on the processing

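Counts of members stayed within 1.5 times of 740 in 8 of 21 settings. They were 1374 (8.65% of shared regions) with percentiles taken among all peaks of a list. There 422 of the 740 remained and regions ranked lower numbered 135 (the lists differ in length). Members numbered 329 where each library had to cover at least 50% of the region, or 4.66% of 7064 shared regions. With the 6 strongest summits within 100 bp they numbered 401, or 4.73% of 8470. Both shares are near the 4.66% of the main setting. Gaps of at least 5 and 10 points gave 226 and 70, and the replicate block gave 2317. Without replicate 3 in both treatments there were 4439, or 17.6% of 25214, with 4033 ranked lower. Leaving out 1 library gave 1298 to 2099 members (8.12% to 11.2% of shared regions), with 1212 to 1851 regions ranked lower. Members numbered 1298, 1650 and 1680 without insulin replicate 1, 2 or 3. They numbered 1548, 1525 and 2099 without untreated replicate 1, 2 or 3. With fewer libraries to order, more regions pass. The mean held-out share was 48.6% and between 46.4% and 54.5% in 12 settings, a range that crosses 50% (46.7% to 53.5% with 1 library left out); it was 54.5% when same-numbered pairs alone were held out (replicate block) and 54.2% when regions were also chosen within such pairs. The settings by the 6 strongest summits, by fragments, without chromosomes 2, 6, 14, 16, 17 and 20, and within pairs were chosen after seeing the data. The planned promoter and motif settings were not run, for want of an hg19 genome. Depth is unknown, and the median of 29 fragments at shared summits in both replicate 3 lists limits how finely its ranks separate.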
